A study of Mus musculus with 7 samples.

Results

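The glucocorticoid receptor gene Nr3c1 and 9 of its target genes (Fkbp5, Tsc22d3, Per1, Zbtb16, Sgk1, Errfi1, Pdk4, Mt1 and Mt2) were examined in endothelial cells of the fetal mouse lung. They were chosen by gene symbol from the array annotation, and each of the 10 had 1 probe set that carried no other gene's symbol. They are 10 of the 16637 genes that passed a filter on dim signal, and all 10 passed it. The study measured RNA at E18.5 in 3 wild-type samples and in 4 samples of the genotype Sash1-/-, all from littermate embryos on a C57BL/6 background. In both groups the viable lung cells that were CD31+/CD45-/CD326- had been sorted and frozen. Such a sort aims to keep endothelial cells and to leave out leukocytes and epithelial cells. The labels name no Cre driver, do not give the part of Sash1 that was removed, and do not say whether each sample was a separate embryo, so the error given below is the spread between these samples and may be partly technical. Values are log2 signals of 1-colour arrays, 1 per sample, where a difference of 1 is a doubling. Arrays are called wild-type 1 to 3 and knockout 1 to 4 after their labels.

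The glucocorticoid receptor is a hormone-activated transcription factor that waits in the cytoplasm in a complex with HSP90 and immunophilins. On binding cortisol or corticosterone it enters the nucleus, binds DNA at a palindromic element made of inverted half-sites, and raises or lowers the transcription of nearby genes. Fetal glucocorticoids rise before birth and are known for maturing the lung, including its surfactant system. Most of the 9 targets also answer to other stimuli, such as metals (the metallothioneins), light and clock signals (Per1), growth factors (Errfi1 and Sgk1) and fasting (Pdk4).

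Promoter sequences are shown for 4 of the targets, as examples of upstream windows with matches to sites of these regulators. RefSeq promoters (build GRCm38.p6) were found for 8 of the 10 genes, with 17 transcript starts among them, and not for Nr3c1 or Zbtb16. In each, the 250 bases before the start were searched on both strands for the receptor half-site TGTTCT, for the full palindromic element (AGAACA, 3 free bases, TGTTCT), for the metal response core (TGCACNC or TGCGCNC), for the cyclic AMP response half-site TGACG and full site TGACGTCA, for the E-box CACGTG, and for the AP-1 site TGANTCA. Capitals mark the matches to any of these, and each sequence runs 5′ to 3′ on the strand of its gene.

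Sgk1, chr10:21993640-21993889, plus strand: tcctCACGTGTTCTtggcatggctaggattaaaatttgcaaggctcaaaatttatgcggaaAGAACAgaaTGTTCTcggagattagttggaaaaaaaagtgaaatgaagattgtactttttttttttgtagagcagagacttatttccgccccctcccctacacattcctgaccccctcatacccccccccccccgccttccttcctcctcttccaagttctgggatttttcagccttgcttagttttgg
Mt2, chr8:94172368-94172617, plus strand: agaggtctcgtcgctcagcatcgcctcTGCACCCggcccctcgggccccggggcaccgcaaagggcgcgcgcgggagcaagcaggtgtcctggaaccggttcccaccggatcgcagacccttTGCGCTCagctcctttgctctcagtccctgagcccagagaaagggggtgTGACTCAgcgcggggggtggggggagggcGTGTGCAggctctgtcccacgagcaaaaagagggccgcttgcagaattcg
Mt1, chr8:94178839-94179088, plus strand: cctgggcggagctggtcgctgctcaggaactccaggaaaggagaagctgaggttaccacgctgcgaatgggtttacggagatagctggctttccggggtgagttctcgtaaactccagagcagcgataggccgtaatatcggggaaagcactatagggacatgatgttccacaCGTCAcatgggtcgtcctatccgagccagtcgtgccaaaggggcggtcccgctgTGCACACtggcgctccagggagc
Errfi1, chr4:150854820-150855069, plus strand: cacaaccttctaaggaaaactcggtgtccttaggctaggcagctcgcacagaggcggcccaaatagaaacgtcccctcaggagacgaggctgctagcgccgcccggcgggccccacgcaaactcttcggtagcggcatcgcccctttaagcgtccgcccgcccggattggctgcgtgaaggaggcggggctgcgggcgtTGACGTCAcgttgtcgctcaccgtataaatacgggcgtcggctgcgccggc

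The Sgk1 window, 1 of 6 for that gene, held the full palindromic element without a mismatch, 189 to 175 bases before the start. Of all 32851 promoter windows, 3 (0.00913%) held it, and 46 (0.14%) did so with 1 mismatch allowed. Among the 8 genes with a promoter, Sgk1 was the only match under either rule. A further half-site in this window overlapped an E-box. The receptor half-site alone lay in windows of Sgk1 and Tsc22d3, 2 of the 8 genes with a promoter, and in 16.1% of all windows. The metal response core occurred 3 times in the Mt2 window and 1 time in the Mt1 window, and was also in a Per1 window and in 21.4% of all windows. The AP-1 site stood in the Mt2 window and in 6.75% of all. The full cyclic AMP response site stood in the Errfi1 window, where it includes a half-site on each strand, and in 1.55% of all. Its half-site alone lay in windows of Errfi1, Mt1, Per1, Sgk1 and Tsc22d3 and in 17.8% of all, and E-boxes lay in windows of Fkbp5, Per1 and Sgk1 and in 6.02% of all. A match of letters is a description of these windows, not a measured binding site. The windows are set by the tabled starts, and sites farther away or downstream of the start were not searched.

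Before the results, 2 arrays have to be named because their Sash1 signal did not follow their label. Sash1, a scaffold protein gene (probe set 17239113), measured 9.02, 8.73 and 8.33 in wild-type 1, 2 and 3 and 8.29, 8.21, 8.68 and 8.13 in knockout 1 to 4. Wild-type 3 thus lay close to knockout 1, and knockout 3 close to wild-type 2. A probe set outside the removed part would not check the labels. Directions below rest on the labels, and the difference of each member is also given without these 2 arrays, an alternative chosen after seeing the data. The sorted cell type was checked by its markers. Pecam1, which encodes CD31, measured 11.03 to 11.21 and Cdh5, the vascular cadherin gene, 11.83 to 11.97 over all 7 arrays. The epithelial surfactant gene Sftpc was as bright, at 11.86 to 12.00 on every array except knockout 4 (10.20). The markers thus do not show the samples to be free of epithelial RNA.

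The signal of the receptor gene itself was nearly level. Nr3c1 (probe set 17353985) measured 8.12, 8.13 and 8.20 in wild-type 1, 2 and 3 and 8.17, 8.32, 8.13 and 7.92 in knockout 1 to 4. The groups overlapped, and only knockout 4 lay below the wild-type arrays. Its knockout-minus-wild-type difference was -0.015 (SE 0.11, 95% confidence interval -0.27 to 0.24; limma adjusted p = 1.00), and 0.012 without wild-type 3 and knockout 3. Its sign turned under 5 of the alternatives, whose values are in the closing section. Fits with the replicate number as a fixed block and without knockout 4 gave the same value, because no other array has the number 4. Across the 7 arrays the standard deviation of Nr3c1, 0.12, stood at the 18.3rd percentile of all tested genes.

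Most of the targets, in contrast to the receptor gene, spread widely between arrays. Tsc22d3 and Zbtb16 did so less, with standard deviations over the 7 arrays of 0.25 and 0.29. All 9 targets had a lower mean on the knockout-labelled arrays. None of these differences passed the test. In limma with Benjamini-Hochberg adjustment over all tested genes, 0 of 10 members were called at an adjusted p under 0.05, as were 0% of all 16637 genes. At an unadjusted p under 0.05 there were 0 of 10 members and 3.34% of all genes. The groups overlapped in all 10, whereas in 0.679% of genes every knockout-labelled array lay below every wild-type-labelled one. The median difference of the 10 was -0.46, against 0.015 over all tested genes, 45.6% of which had a negative difference.

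Feedback and partner genes of the receptor came first. Fkbp5 encodes FKBP51, the immunophilin that lowers the receptor's affinity for hormone and is itself strongly induced by it. Fkbp5 (probe set 17342868) measured 6.54, 6.38 and 5.36 in wild-type 1, 2 and 3 and 5.30, 5.56, 5.66 and 5.26 in knockout 1 to 4. Wild-type 1 and 2 lay above all other arrays, and wild-type 3 lay within the knockout-labelled range. The difference was -0.65 (SE 0.28, 95% confidence interval -1.32 to 0.02; adjusted p = 0.971 in limma), a signal ratio of 63.8% (40.2% to 101%). Fkbp5 ranked 632nd of the tested genes by p, ahead of the other 9 members. Without wild-type 3 and knockout 3 the difference was -1.09.

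Tsc22d3 encodes GILZ, a leucine zipper protein that mediates part of the hormone's anti-inflammatory action. Its signal (probe set 17544939) was 7.37, 7.46 and 6.84 in wild-type 1, 2 and 3 and 7.11, 6.90, 7.28 and 6.88 in knockout 1 to 4. Wild-type 3 was the lowest of the 7 and knockout 3 the highest of its label. The difference was -0.18 (SE 0.18, 95% confidence interval -0.60 to 0.24; adjusted p = 0.971 in limma), and -0.45 without these 2 arrays. Zbtb16, which encodes the zinc finger repressor PLZF (probe set 17526707), measured 8.43, 8.52 and 8.06 in wild-type 1 to 3 and 8.25, 7.91, 8.38 and 7.75 in knockout 1 to 4. Knockout 2 and 4 lay below all wild-type arrays, while knockout 1 and 3 lay among them. The difference was -0.26 (SE 0.19, 95% confidence interval -0.71 to 0.18; adjusted p = 0.971 in limma), and -0.51 without the same 2 arrays.

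Per1, a core repressor of the circadian clock, is also induced by the receptor. Per1 (probe set 17251527) measured 9.11, 9.25 and 8.29 in wild-type 1 to 3 and 8.86, 8.43, 9.06 and 8.33 in knockout 1 to 4. Both extremes of the 7 arrays carried the wild-type label. The difference was -0.21 (SE 0.28, 95% confidence interval -0.87 to 0.44; adjusted p = 0.972 in limma), and -0.64 without wild-type 3 and knockout 3.

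Kinase and kinase-control genes varied more. Sgk1 encodes a serine/threonine kinase that regulates ion transport and cell survival, and its window with the palindromic element is printed above. Sgk1 (probe set 17232055) measured 9.54, 9.71 and 7.67 in wild-type 1, 2 and 3 and 7.16, 8.01, 9.28 and 7.62 in knockout 1 to 4. High values above 9 came from wild-type 1, wild-type 2 and knockout 3, and no array lay between 8.01 and 9.28. The difference was -0.96 (SE 0.64, 95% confidence interval -2.47 to 0.56; adjusted p = 0.971 in limma), and -2.03 without wild-type 3 and knockout 3.

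Errfi1 encodes MIG6, a feedback inhibitor of the EGF receptor. Errfi1 (probe set 17421972) measured 8.70, 8.73 and 7.29 in wild-type 1 to 3 and 7.86, 7.22, 8.51 and 6.72 in knockout 1 to 4. Again wild-type 3 fell within the knockout-labelled range and knockout 3 stood near wild-type 1 and 2. The difference was -0.66 (SE 0.51, 95% confidence interval -1.87 to 0.54; adjusted p = 0.971 in limma), and -1.45 without these 2 arrays. Pdk4 encodes the kinase that switches off pyruvate dehydrogenase and so spares glucose. Pdk4 (probe set 17464654) measured 6.94, 7.02 and 5.02 in wild-type 1 to 3 and 5.96, 5.63, 6.74 and 6.11 in knockout 1 to 4, with wild-type 3 below every knockout-labelled array. The difference was -0.22 (SE 0.52, 95% confidence interval -1.43 to 1.00; adjusted p = 0.986 in limma), and -1.08 without wild-type 3 and knockout 3.

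The metallothionein genes had the widest range. Mt1 and Mt2 encode small cysteine-rich proteins that bind zinc and copper, and their tabled starts lie 6471 bases apart. Mt1 (probe set 17503942) measured 9.13, 9.43 and 7.48 in wild-type 1, 2 and 3 and 8.37, 7.35, 8.52 and 6.42 in knockout 1 to 4. Knockout 1 and 3 lay between wild-type 3 and the other 2 wild-type arrays. Its difference was -1.01 (SE 0.65, 95% confidence interval -2.53 to 0.50; adjusted p = 0.971 in limma), and -1.90 without wild-type 3 and knockout 3. Mt2 (probe set 17503937) measured 9.73, 10.03 and 6.82 in wild-type 1 to 3 and 7.80, 7.05, 9.43 and 5.83 in knockout 1 to 4. From knockout 4 to wild-type 2 it spanned 4.20 log2 units, an 18.4-fold range. Its difference was -1.33 (SE 1.03, 95% confidence interval -3.76 to 1.097; adjusted p = 0.971 in limma), and -2.99 without those 2 arrays. The genes are close paralogues, and cross-hybridisation between their probes was not tested. Both ranked the arrays alike, with wild-type 2 highest, then wild-type 1, knockout 3 and knockout 1, and knockout 4 lowest, and only wild-type 3 and knockout 2 changed places.

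**Figure D1:**
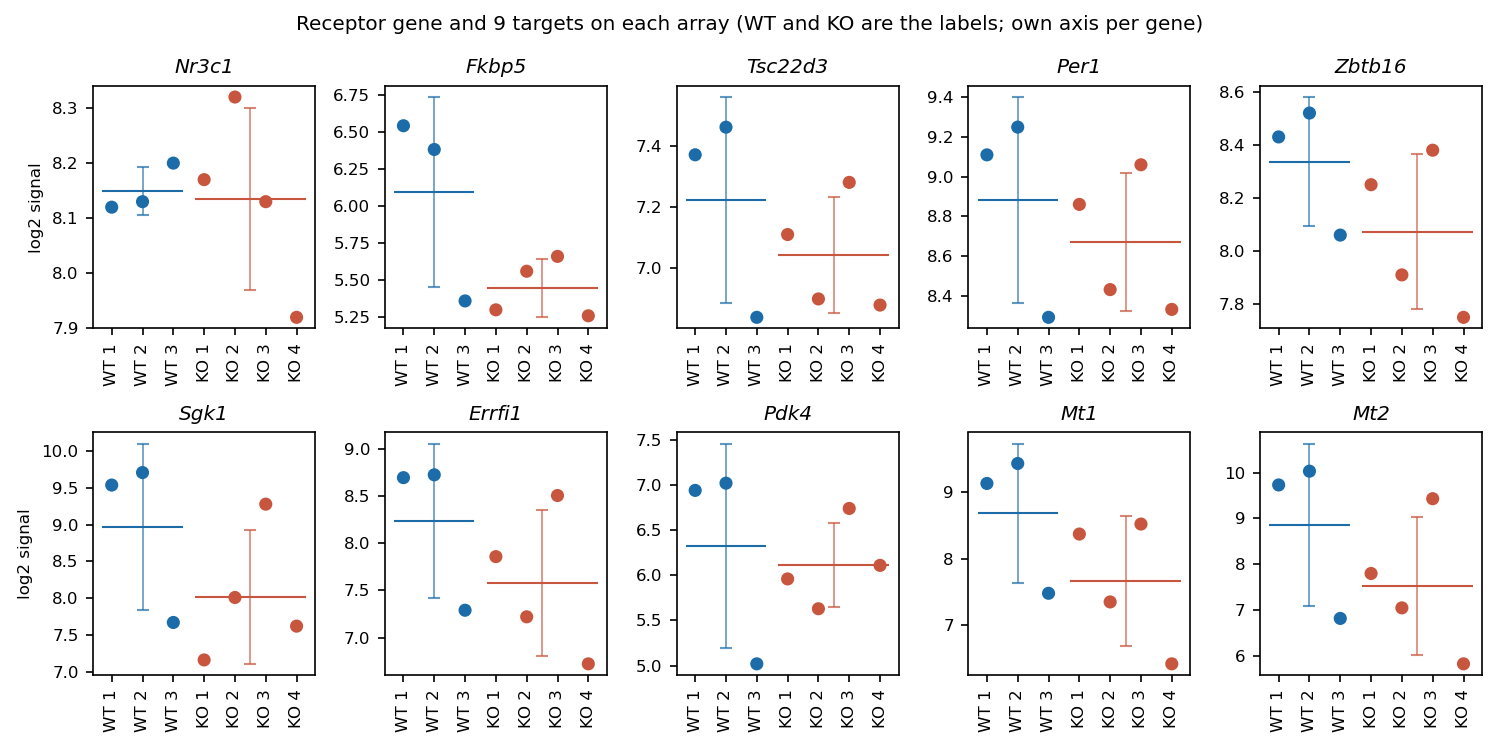
Log2 signal (vertical axis, scaled separately for each gene) of Nr3c1 and the 9 targets on the 3 wild-type-labelled (blue, WT) and 4 knockout-labelled (red, KO) arrays. Points are arrays, horizontal lines are group means and bars are 1 SD. In each of the 9 targets WT 3 is the lowest of its label and KO 3 the highest of its label.

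The 9 targets thus shared an order of arrays that was not the order of the labels. Knockout 3 was the highest of the 4 knockout-labelled arrays in 9 of 9 targets, against 21.8% of all tested genes. Wild-type 3 was the lowest of its label in 9 of 9, against 35.5% of all tested genes, and both held together in 12.5% of them. In all 9 targets wild-type 1, wild-type 2 and knockout 3 were the highest 3 of the 7 arrays, an order seen in 5.8% of tested genes. Nr3c1 followed none of these patterns. The spread over 7 arrays ranged from a standard deviation of 0.25 in Tsc22d3, at the 66.3rd percentile of tested genes, to 1.64 in Mt2, at the 99.9th. Sgk1 and Mt1 stood at the 99.6th and 99.7th, Errfi1 at the 99th, Pdk4 at the 98.7th, Fkbp5 at the 95.7th, Per1 at the 89.9th and Zbtb16 at the 74.4th. The members had been chosen with earlier results of these data known, so these percentiles describe the genes and support no test.

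The fit without wild-type 3 and knockout 3 had less spread within labels in the targets, which follows from the choice, since these arrays were the lowest and the highest of their labels in all 9. In that fit 0 members and 0% of all genes were called at an adjusted p under 0.05, and the smallest adjusted p among the members was 0.244 in limma. At an unadjusted p under 0.05 there were 9 members with lower values, against 4.73% of all tested genes. In the same 9, each of the 3 remaining knockout-labelled arrays lay below both wild-type-labelled ones, which held for 10.9% of all genes. The 95% confidence intervals of the 9 targets then excluded 0, from -1.44 to -0.74 for Fkbp5, from -2.73 to -1.33 for Sgk1 and from -0.95 to -0.05 for Zbtb16. That of Nr3c1 ran from -0.36 to 0.39. Since the 2 arrays were set aside after their values were known, this fit is a description.

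**Figure D2:**
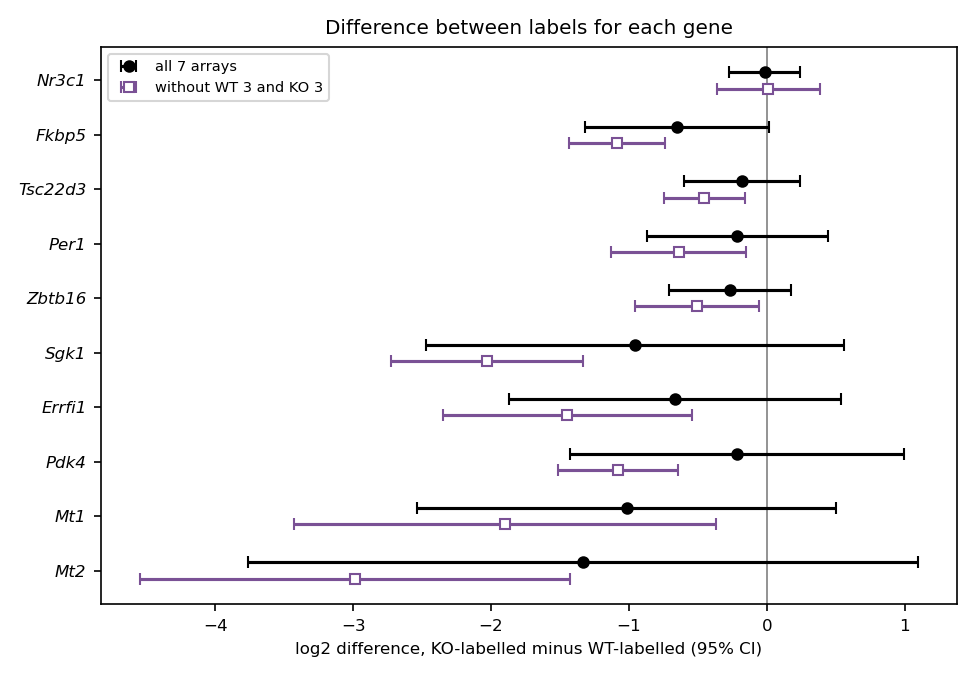
Log2 difference between labels (horizontal axis, knockout-labelled minus wild-type-labelled) with its 95% confidence interval for each gene, from all 7 arrays (black circles) and without WT 3 and KO 3 (open squares). All 10 black intervals include 0. The open intervals of the 9 targets lie below 0, and that of Nr3c1 includes it.

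Leaving out single arrays moved these differences. Without wild-type 3 alone each of the 9 targets lay further from 0 by over 1.5 times, at -0.37 for Tsc22d3, -0.51 for Per1, -0.87 for Pdk4, -1.61 for Sgk1 and -2.35 for Mt2. Pdk4 turned to 0.09 without wild-type 1 and to 0.13 without wild-type 2, and it was -0.06 without knockout 2. Per1 was -0.03 without wild-type 2 and -0.10 without wild-type 1 or knockout 4. Without knockout 4 Mt1 was -0.60, Mt2 -0.77 and Errfi1 -0.38. Fkbp5 was between -0.42 and -0.72 when any array other than wild-type 3 was left out, and -1.01 without that array.

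**Figure D3:**
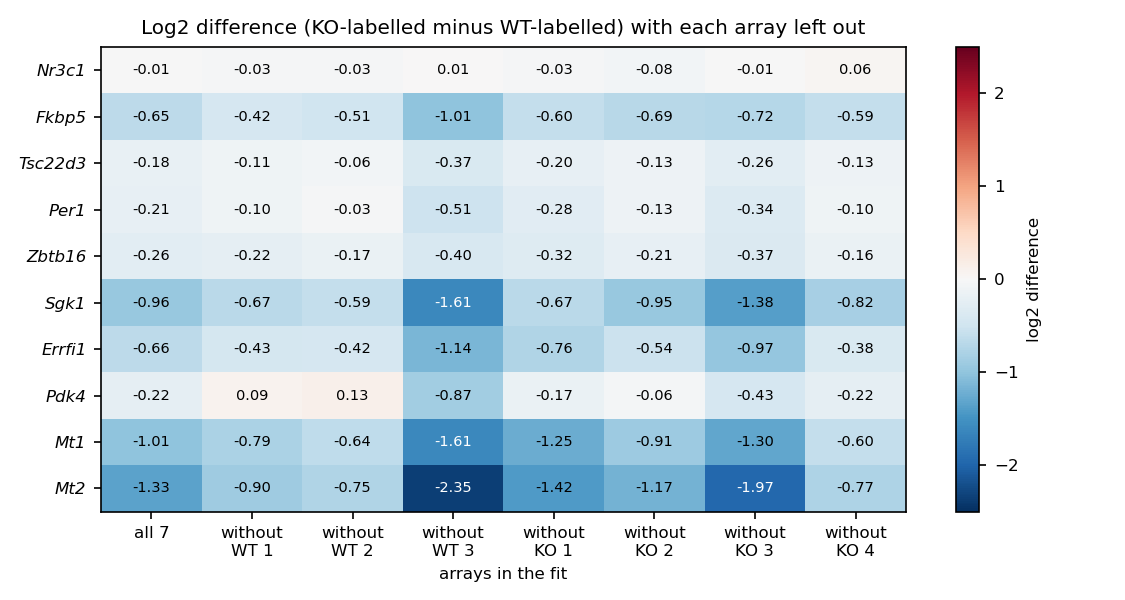
Log2 difference (knockout-labelled minus wild-type-labelled) of each gene, as a number and a colour, in the fit with all 7 arrays and in the 7 fits that leave 1 array out. The column without WT 3 holds the most negative value of each of the 9 targets, and Pdk4 is positive without WT 1 or WT 2.

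Proteins that handle the hormone or its receptor were compared next. The list holds the mineralocorticoid receptor, the enzymes that activate or inactivate corticosterone, chaperones, an importin, coactivators and corepressors, and 20 of its 24 genes were tested. Of these, 11 had positive and 9 negative differences, with a median of 0.0033, and 0 were called in limma (1 at an unadjusted p under 0.05). That gene was Smarca4, the chromatin remodelling ATPase BRG1 that opens receptor target sites, which measured 7.46, 7.71 and 7.82 in wild-type 1 to 3 and 7.88, 8.14, 7.88 and 8.15 in knockout 1 to 4. All 4 knockout-labelled arrays lay above the wild-type ones, as in 1.77% of all tested genes, by a mean of 0.35 (95% confidence interval 0.05 to 0.65; adjusted p = 0.971 in limma). Fkbp4, the immunophilin FKBP52 that competes with FKBP51 for the receptor complex, differed by 0.26 (-0.02 to 0.53), and the mineralocorticoid receptor gene Nr3c2 by -0.19 (-0.41 to 0.03). The mean of this list lay between 7.18 and 7.41 on the 7 arrays, without the drop in wild-type 3 seen in the targets.

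Further genes known to be induced by the receptor were measured for 35 of 38 listed. Their differences were negative in 24 and positive in 11, with a median of -0.08, and 0 were called in limma (0 at an unadjusted p under 0.05). That median was -0.23 without wild-type 3 and lay between -0.04 and -0.23 over the fits that leave out 1 array, and it was -0.28 with both wild-type 3 and knockout 3 set aside. Il1r2, the decoy receptor for interleukin 1, measured 6.02, 5.09 and 3.59 in wild-type 1 to 3 and 4.22, 3.52, 4.32 and 3.29 in knockout 1 to 4, so that the groups overlapped through wild-type 3. It differed by -1.06 (95% confidence interval -2.38 to 0.25). Gadd45b, a stress-response gene, went the other way with 7.13, 6.96 and 7.01 against 7.84, 7.54, 7.11 and 7.21, a difference of 0.39 (-0.04 to 0.82). The thiamine transporter gene Slc19a3 differed by -0.23 (-0.55 to 0.10). In 13 of the 35, or 37.1%, wild-type 1, wild-type 2 and knockout 3 were the highest 3 arrays, as in the 9 targets. That order held in 5.8% of all tested genes.

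Genes that the active receptor is known to hold down, mainly cytokines, chemokines and adhesion molecules, had differences of the same sign as the 9 induced targets. Differences were negative in all 13 tested genes (of 16 listed) and their median was -0.28, but 0 were called in limma (0 at an unadjusted p under 0.05). Single arrays moved their median, to -0.54 when wild-type 3 was left out and -0.13 when wild-type 2 was, and it was -0.74 with the dimmest 50% of genes left out. With both wild-type 3 and knockout 3 set aside it was -0.77. Ptgs2, the inducible cyclooxygenase gene, measured 6.53, 5.63 and 4.05 in wild-type 1 to 3 and 4.57, 3.23, 5.51 and 2.98 in knockout 1 to 4, with wild-type 3 and knockout 3 again on the side of the other label. Its difference was -1.33 (95% confidence interval -3.16 to 0.50). The chemokine gene Ccl2 differed by -1.06 (-2.39 to 0.28), and Rela, which encodes an NF-kB subunit, by -0.31 (-0.67 to 0.06). The order with wild-type 1, wild-type 2 and knockout 3 highest held in 7 of these 13, against 5.8% of all tested genes.

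Family relatives of the targets were compared as well. Of the 17 tested (of 20 listed), 10 had negative and 7 positive differences, their median was -0.0033, and 0 were called in limma (1 at an unadjusted p under 0.05). Pdk2, another pyruvate dehydrogenase kinase, measured 6.91, 6.61 and 6.80 in wild-type 1 to 3 and 7.42, 7.17, 7.02 and 6.96 in knockout 1 to 4. The groups did not overlap, as in 1.77% of all tested genes in this direction, and its difference was 0.37 (95% confidence interval 0.05 to 0.69). Pdk1 differed by -0.60 (-1.51 to 0.31) and Tsc22d2 by -0.18 (-0.48 to 0.11). The median standard deviation over 7 arrays was 0.15 in this list, 0.74 in the 9 targets and 0.20 over all tested genes, but that of Pdk1 was 0.63, above those of Fkbp5, Per1, Zbtb16 and Tsc22d3. Mt3 and Mt4, the other metallothionein genes of the list, fell below the filter on dim signal.

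Immediate early and stress genes, which rise quickly in cells handled during tissue dissociation, followed the same arrays. Their mean was 8.26, 8.11 and 6.89 in wild-type 1 to 3 and 7.63, 6.90, 8.36 and 6.54 in knockout 1 to 4, next to 8.39, 8.50 and 6.98 and 7.41, 7.12, 8.10 and 6.77 for the 9 targets. In 22 of the 25 tested genes wild-type 3 was the lowest and knockout 3 the highest of its label, against 12.5% of all tested genes. The order with wild-type 1, wild-type 2 and knockout 3 as the highest 3 arrays held in 17 of the 25, against 5.8% of all tested genes. Differences were negative in 22, with a median of -0.42, and 0 were called in limma (1 at an unadjusted p under 0.05). Over the fits that leave out 1 array that median ran from -0.94 (without wild-type 3) to -0.10 (without knockout 4), and it was -1.12 with both wild-type 3 and knockout 3 set aside. Nr4a2, an orphan nuclear receptor, differed by -0.73 (95% confidence interval -1.35 to -0.10), Maff, a small bZIP factor, by -0.77 (-1.58 to 0.05), and the AP-1 subunit gene Fosl2 by -0.63 (-1.41 to 0.15). The part of these genes in the levels of the targets was not tested.

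Markers of other cells that the sort could have let through also differed between arrays, while endothelial markers did not follow the targets. In bulk samples, fewer cells of a type and less RNA per cell cannot be told apart. The mean of the 12 endothelial markers lay between 9.94 and 9.99 in the wild-type label and between 9.84 and 10.09 in the knockout label, and in 0 of 12 was wild-type 3 the lowest and knockout 3 the highest of its label. Lung epithelial markers (18 of 18 tested) averaged 7.18 to 8.19 and 6.35 to 8.03, leukocyte markers (18 of 18) 5.59 to 6.24 and 5.03 to 6.05, and platelet markers (5 of 6) 4.87 to 5.90 and 4.71 to 5.86. Fibroblast and mural markers (12 of 12) averaged 6.83 to 7.25 and 6.74 to 7.52, mesothelial markers (5 of 5) 5.15 to 6.11 and 5.27 to 5.59, and erythroid markers (2 of 8) 4.25 to 4.64 and 4.47 to 4.79. Knockout 4 was lowest of the 7 arrays in 5 of the 9 targets, against 15.3% of all tested genes. It was also lowest for the means of the epithelial, leukocyte, platelet, fibroblast and mural, immediate early and receptor handling lists. The means of the endothelial, mesothelial, other target, family relative and repressed lists were lowest on another array, and the erythroid mean was highest on knockout 4. The defining erythroid marker Alas2 had no single-symbol probe set. Array medians over all probe sets were 3.86 to 4.03, and no level was set below which a marker counts as absent. Ptprc, which encodes CD45, ranged from 3.51 to 4.85 and Epcam, which encodes CD326, from 4.06 to 5.31, while the surfactant gene Sftpc ranged from 10.20 to 12.00. By the same measure, wild-type 3 was the lowest and knockout 3 the highest of its label in 9 of 18 epithelial, 7 of 18 leukocyte, 4 of 5 platelet and 2 of 12 fibroblast and mural markers, against 12.5% of all tested genes. The stricter order, with wild-type 1, wild-type 2 and knockout 3 highest, held in 2, 6, 4 and 1 of them, and in 0 endothelial markers. Over all tested genes this order held in 5.8%. The part of these cells in the levels of the targets was not tested.

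Of the marker genes picked by smallest p, Tcf21, a fibroblast transcription factor, differed by 0.47 (95% confidence interval 0.10 to 0.85) and the mesothelial gene Upk3b by -0.94 (-1.87 to -0.01), both with an adjusted p of 0.971 in limma. The intervals of the others included 0. These were Flt1, Erg and Egfl7 (endothelium), Foxj1, Sftpa1 and Sftpc (epithelium), and Cd68, C1qb and Lyz1 (leukocyte list). Col1a1 and Lum (fibroblasts), Klf1 and Slc4a1 (erythroid cells), Pf4, Gp9 and Itga2b (platelets) and Lrrn4 and Wt1 (mesothelium) were the rest. Lyz1 measured 4.02 on knockout 4 and 8.93 to 11.09 on the other arrays, much as Sftpa1 did (4.70 against 7.78 to 9.38). Whether Lyz1 marked leukocytes here was not tested, so the mean of its list may hold epithelial signal.

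**Figure D4:**
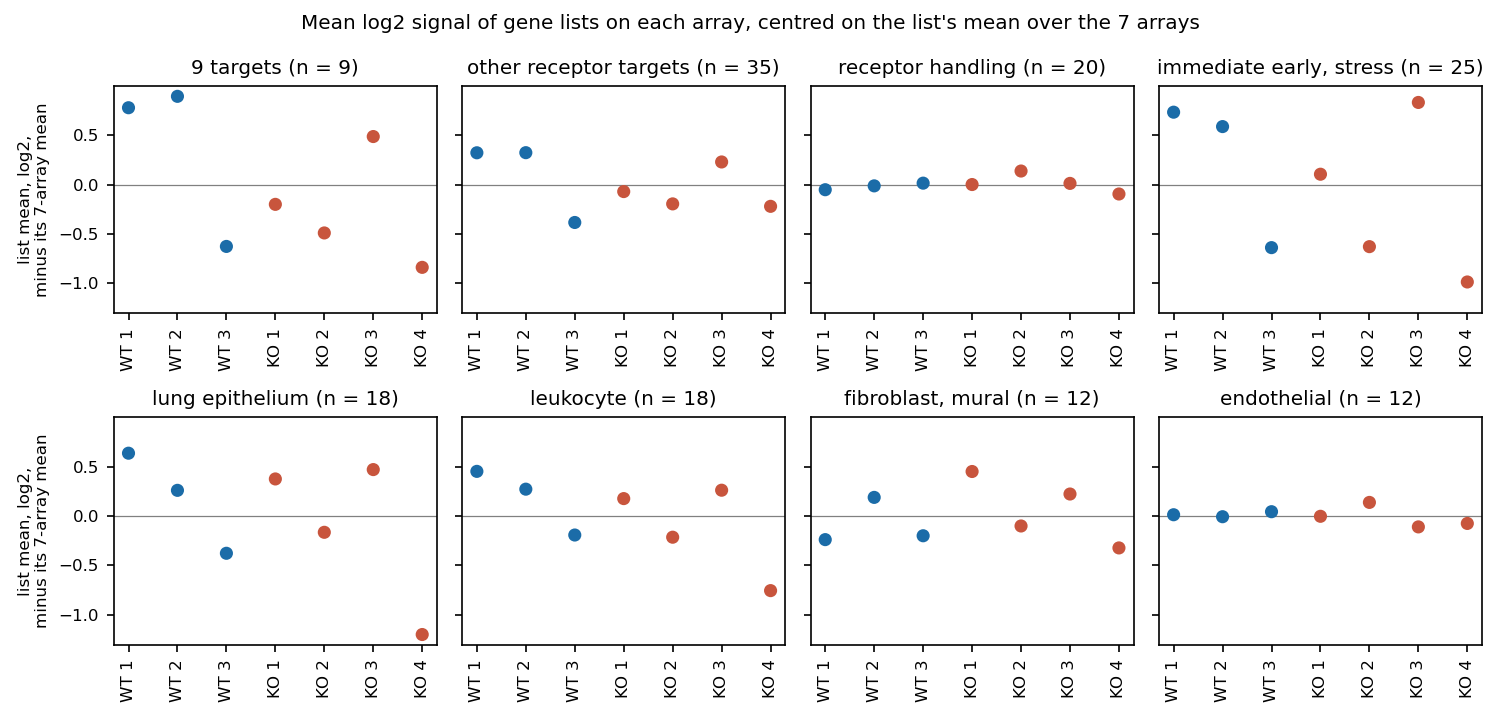
Mean log2 signal of 8 gene lists on each array, minus the list's mean over the 7 arrays (vertical axis, shared), for wild-type-labelled (blue, WT) and knockout-labelled (red, KO) arrays. The 9 targets and the immediate early and stress genes drop together in WT 3, KO 2 and KO 4 and rise together in KO 3. Other receptor targets, lung epithelium, leukocyte, and fibroblast and mural genes also lie below 0 in WT 3, KO 2 and KO 4. All of these lie above 0 in KO 3, and the fibroblast and mural genes are also below 0 in WT 1. Receptor handling and endothelial genes stay close to 0.

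The genes most like the targets were found by the mean absolute distance, over the 7 arrays, between a gene's centred log2 values and the average centred values of the 9 targets. The closest 5 non-members were Smad6 (0.0963), which encodes an inhibitory SMAD of BMP signalling, Dusp4 (0.102), a MAP kinase phosphatase gene, Klf6 (0.126), a zinc finger factor gene, Rhob (0.132), a small GTPase gene that is also in the immediate early list, and Spry2 (0.143), which encodes an inhibitor of growth factor signalling. The median distance over all other tested genes was 0.622. Smad6 measured 8.54, 8.65 and 7.13 in wild-type 1 to 3 and 7.23, 7.36, 8.12 and 6.85 in knockout 1 to 4, which repeats the order of the targets with wild-type 3 low and knockout 3 high. Among the targets themselves, Errfi1 lay closest to the average of the other 8 (0.154) and Mt2 farthest from it (0.879). The distance is not scaled, so it grows with a gene's range, which was widest in Mt2 (4.20 log2 units). It does not measure the order of arrays alone.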

How the data were processed

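RNA from sorted lung endothelial cells of 7 samples at E18.5 was amplified, labelled and hybridised to 1-colour arrays, per the labels' protocols. The authors deposited 1 value per probe set and array (41345 probe sets), made with RMA in Affymetrix Expression Console 1.1, per the submitters' processing notes. RMA's quantile step can shrink shifts shared by many genes. That the deposited values are log2 was read from the values, and the build behind the annotation is not given in the sources used here. Array medians were 3.86 to 4.03. The number of arrays limits the precision: the half-width of a gene's 95% confidence interval had a median of 0.345.

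Probe sets were named from the platform annotation, updated through RefSeq identifiers (99.2% found): 23521 had 1 symbol, 1814 several and 16010 none listed. Each gene took its brightest probe set, and the dimmest 25% of 22180 genes (below 2.98) were left out. Labels were compared by limma 3.58.1 (R 4.3.3) across all tested genes, two-sided. On simulated data with noise drawn independently for each gene, the fit recovered the mean of known differences. Such data lack the array patterns that genes share here, and do not show how often real differences would be called. Members and lists were chosen with earlier results of these data known. Named genes are the members, the 3 genes of smallest p in each other list, the 5 nearest to the targets, and the checks Sash1, Pecam1, Ptprc and Epcam; Cdh5 was added after its values were seen. Alternatives covered the filter, normalization, moderation, array weights, probe set choice, replicate number as a block, and each array left out.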

Additional observations from a re-analysis of the deposited data

Results flagged for a closer look

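Values of 6 genes on 1 knockout-labelled array stood apart from the other 3 arrays of that label, by a gap test (Dixon's) at its 95% level over 70 genes and list means, where chance gives about 1 in 20. No member was among them. On knockout 4 these were the epithelial genes Epcam (4.06) and Sftpc (10.20), the leukocyte gene Ptprc (3.51) and the target relative Tsc22d2 (5.65), all low. Slc19a3 was low on knockout 3 (3.47), and the platelet gene Itga2b was low on knockout 2 (4.12).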

How the results depend on the processing

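The count of called genes was 0 for the members and for all tested genes under every alternative run. Same-numbered arrays of the 2 labels did not deviate together (correlations of deviations of -0.18, -0.20 and -0.55). Correlations this few cannot show whether the number pairs samples, and the labels do not say. A fixed block for that number gave each member the same difference as leaving out knockout 4, the only array numbered 4. With the replicate block as a fixed term, 225 genes had an unadjusted p under 0.05 in limma. With the block as a random effect there were 367, against 556 without it. Array weights gave 1310 such genes and 1 such member, against 0. With both wild-type 3 and knockout 3 set aside, a choice made after seeing the data, these were 1779 genes and 9 members, and the median difference of the members was -1.08. Over the 7 fits that leave out 1 array, the counts were 295 to 1314 genes and 0 to 6 members, and that median was -0.94 to -0.30. Nr3c1 turned positive with median centring (0.0425), with the fixed block (0.0567), and when wild-type 3 (0.01), knockout 4 (0.0567) or both wild-type 3 and knockout 3 (0.0117) were left out, and over the fits with 1 array left out it was -0.0767 to 0.0567. Pdk4 was -0.87 to 0.13 over these fits, turning when wild-type 1 (0.09) or wild-type 2 (0.13) was absent. The signs of the other 8 members held under all alternatives run. Allowing 1 mismatch in the palindromic element left 1 member gene, Sgk1. Each member has 1 single-symbol probe set, so fits of further probe sets could not be run. Median centring moved the median of all tested genes from 0.015 to 0.07.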
